A study of Homo sapiens with 14 samples.

Results

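RNA of HEK 293 cells made to overexpress CFIm25 (n = 3 libraries) was compared with that of control HEK 293 cells (n = 3). These are 6 of the 14 libraries of a study that also overexpressed CFIm68 (n = 3) and knocked down CFIm25 (n = 2) or CFIm68 (n = 3) with siRNA. HEK 293 is an established human embryonic kidney cell line. By their labels the control libraries come from wild type cells, and those of the overexpression group carry only the genotype CFIm25 overexpression. The labels state a lipid siRNA transfection for every sample in the same words, and do not say which cells of these groups received it. Also not given in the sources used here are the promoter of the introduced copy, whether the cells are 1 clone or a pool, and whether the controls carried an empty vector. All expressed genes were described. Of 18006 genes in the table, 12080 had enough counts to be tested, of which 11927 are protein-coding and 138 are long intergenic noncoding RNAs (lincRNAs). Whether replicates were separate cultures is not stated, so a p below reflects library-to-library spread, which could be technical.

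CFIm25, the product of NUDT21, is the RNA-binding subunit of cleavage factor I. A dimer of CFIm25 binds UGUA sequences in nascent transcripts upstream of cleavage sites, and a larger subunit, CFIm68 (CPSF6) or CFIm59 (CPSF7), links it to the rest of the cleavage machinery. The complex favours distal polyadenylation sites and so long 3′ untranslated regions, which carry sites for microRNAs and RNA-binding proteins. Gene counts as used here give the level of a gene's RNA and hold nothing on which site was used.

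Total counts were 17734490 to 18385536 in the control libraries and 16437307 to 23125253 in the overexpression libraries. Levels are given as CPM, the usual per-library scaling of counts, corrected for library composition (TMM), and changes as log2 differences ± SE, overexpression minus control. A gene is called higher or lower where its adjusted p is under 0.05 (edgeR quasi-likelihood test, Benjamini-Hochberg adjustment over all tested genes). Across genes, log2 CPM correlated at r = 0.994 to 0.995 between control libraries, at 0.994 to 0.995 between overexpression libraries and at 0.974 to 0.979 between the groups (genes are not independent replicates).

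NUDT21 (chr16:56429133-56452199, hg38) checks the label. Its RNA stood at 537, 500.4 and 505 CPM in the 3 control libraries and at 782, 734 and 671 CPM in the 3 overexpression libraries. All overexpression libraries lay above all controls, as the label says, and the rise was moderate, 1.42-fold (0.50 ± 0.06, edgeR adjusted p = 2.0e-08). Whether the added RNA came from the resident gene or an introduced copy cannot be told apart from these counts. NUDT21 changed by 0.22 in CFIm68 overexpression and by -3.26 in CFIm25 knockdown against the same controls, and its level was higher in CFIm25 than in CFIm68 overexpression (0.29 ± 0.06, edgeR adjusted p = 7.2e-05). The genes of its partners did not pass the test, though CPSF6 passed as lower with the median change of 20 GC bins taken off (-0.18, edgeR adjusted p = 0.0028). CPSF6 was at 274, 262 and 268 CPM in control and 263, 256 and 237 CPM in overexpression, ranges that overlap (-0.09 ± 0.05, edgeR adjusted p = 0.12). CPSF7 was at 265, 272 and 282 CPM against 277, 253 and 283 CPM (-0.01 ± 0.05, edgeR adjusted p = 0.89), also overlapping, and the sign of this small difference turned with the processing.

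**Figure D1:**
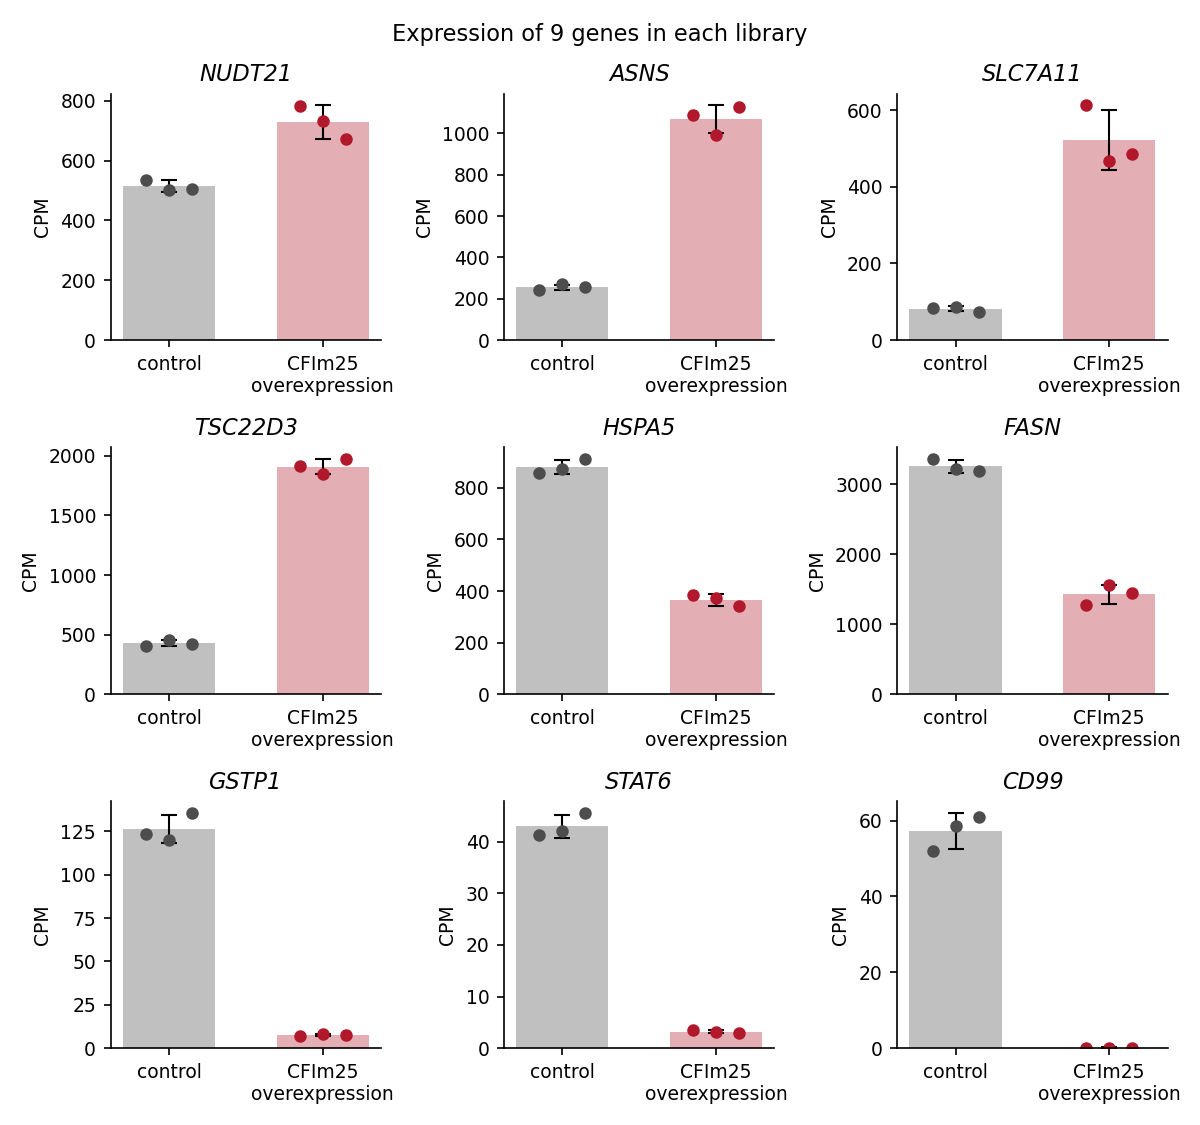
Level in CPM (y axis) of 9 genes in each of the 3 control and 3 CFIm25 overexpression libraries. Points are libraries, bars are group means from 0 and error bars are SD. In every panel the 3 red and the 3 grey points do not overlap. Apart from NUDT21 and HSPA5, the genes come from sets for which that was required.

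With NUDT21 up less than 2-fold, 6854 genes (56.7% of those tested) passed the test. Of these 3343 were higher (27.7%) and 3511 lower (29.1%). Most of the changes were small. The median called gene differed by 0.40 on the log2 scale, or 1.32-fold, and 71.7% of called genes differed by less than 1.5-fold. At least 2-fold changes were found for 396 higher and 259 lower genes, and at least 4-fold changes for 42 and 68. In 6987 genes (57.8%) the 3 overexpression libraries did not overlap the 3 controls. The many small calls go with a narrow spread among libraries (common dispersion, as its square root, 0.0501). In simulated counts for the same libraries, 61% of genes changed 1.25-fold, 82% of genes changed 1.5-fold and 94% of genes changed 2-fold were recovered. There only 49 or 50 of 11820 genes were changed at each fold, a far smaller share than was called here. Recovery at the share called here was not tested.

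**Figure D2:**
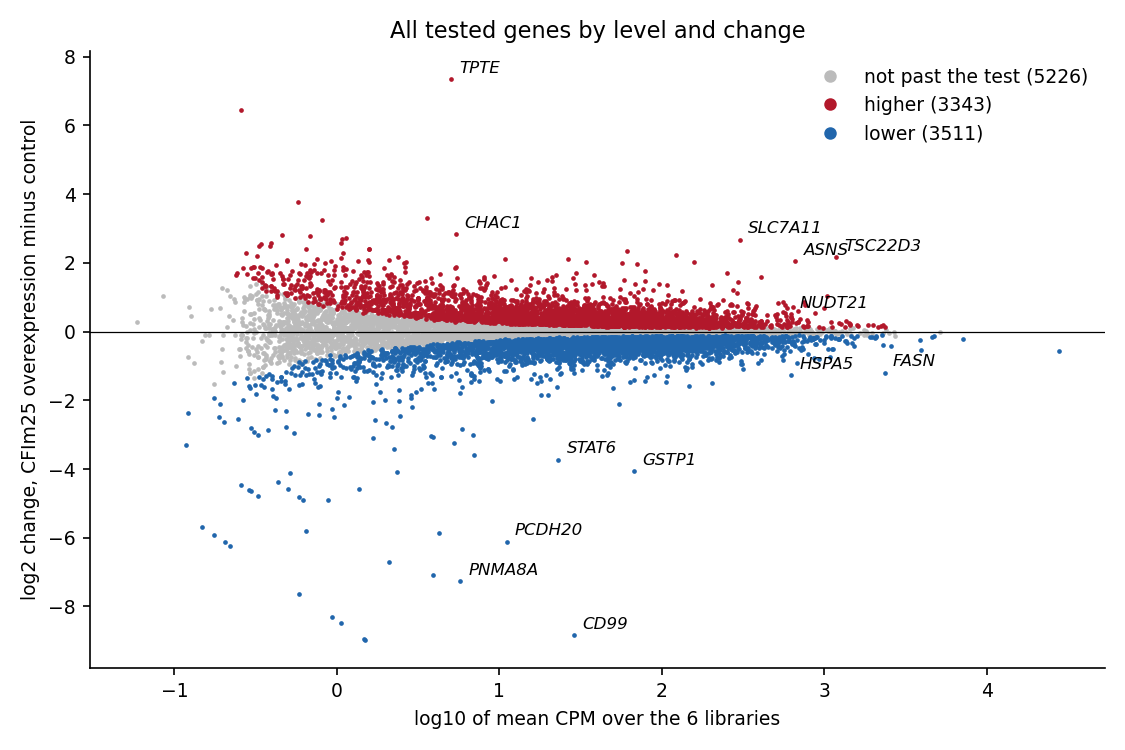
Each point is 1 of 12080 tested genes, placed by the log10 of its mean CPM over the 6 libraries (x axis) and its log2 change (y axis), with genes called higher in red and genes called lower in blue. The lower side has a tail of genes near or at 0 counts in overexpression, such as CD99 and PNMA8A, that has few counterparts on the higher side, where TPTE stands out.

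The steepest rises, where the mean reached 5 CPM and the groups did not overlap, included genes of amino acid supply. SLC7A11, the cystine and glutamate exchanger of the cell surface, stood at 85.1, 85.5 and 74.3 CPM in control and at 612, 468 and 484 CPM in overexpression. ASNS, which makes asparagine, stood at 245, 269.5 and 256 CPM against 1087, 995 and 1126 CPM. CHAC1, which degrades glutathione, was rare in control at 1.42, 1.31 and 1.22 CPM and reached 7.55, 10.2 and 10.7 CPM. In all of these the lowest overexpression library was several times the highest control library. The log2 changes were 2.83 ± 0.23 for CHAC1, 2.68 ± 0.11 for SLC7A11 and 2.06 ± 0.09 for ASNS (edgeR adjusted p = 2.5e-11, 2.8e-17 and 2.5e-17). The glycine transporter gene SLC6A9 rose 5.08-fold, to 102 ± 9.27 CPM (SD, n = 3). CTH, which makes cysteine from cystathionine, rose 4.02-fold, and MAT1A, which makes the methyl donor S-adenosylmethionine, rose 3.65-fold. ASNS shares exonic bases with another annotated gene on its strand, so its counts may be divided between genes.

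TSC22D3, which encodes a leucine zipper protein induced by glucocorticoids, had the largest gain in CPM among called genes whose groups did not overlap. It stood at 408, 455 and 422 CPM in control and 1912, 1844 and 1969.7 CPM in overexpression, 4.45-fold apart (2.15 ± 0.06, edgeR adjusted p = 2.2e-22). Next to ASNS and SLC7A11, the other large gains in CPM were in ZNF711, an X-linked zinc finger protein (672 ± 63.8 to 1389 ± 96.9 CPM), and IARS1, the isoleucyl-tRNA synthetase (763 ± 16.8 to 1228 ± 64.9 CPM). Among the 15 steepest rises were also genes known from the nervous system. The cell adhesion gene PCDH19, a protocadherin, rose from 43.4 ± 2.11 to 201 ± 15.6 CPM (2.21 ± 0.06). CRMP1, which acts in axon guidance, rose 3.91-fold and RAB39B, a small GTPase of neurons, 4.09-fold. ZNF83 (2.12 ± 0.09), FAM184B (2.10 ± 0.13), the arrestin-like gene ARRDC4 (2.03 ± 0.07) and the cadherin gene CDH23 (1.85 ± 0.17) complete the set with TPTE. TPTE, a phosphatase-like membrane protein otherwise known from testis, had 1 count in each control library and 257, 154 and 178 counts in the overexpression libraries, a ratio of 188 (95% exact interval 64.1 to 916, counting error only). It too shares exonic bases with another gene on its strand.

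The steepest falls took genes from moderate levels to nearly none. CD99, a cell surface glycoprotein, had 915, 1074 and 1100 counts in the controls and 1, 3 and 3 counts in the overexpression libraries, a ratio of 460 (95% exact interval 223 to 1145, counting error only). PNMA8A, of the paraneoplastic antigen family, went from 222, 224 and 170 counts to 1, 2 and 1. PCDH20, a protocadherin, went from 421, 381 and 374 counts to 7, 8 and 3, and shares exonic bases with another gene on its strand. In these genes every overexpression library was close to empty. GSTP1, a glutathione transferase, stood at 123, 119.8 and 136 CPM in control and 7.12, 7.92 and 7.65 CPM in overexpression, 16.8-fold lower (-4.07 ± 0.07, edgeR adjusted p = 2.0e-26). STAT6, the transcription factor of interleukin 4 signalling, stood at 41.4, 42.0 and 45.5 CPM against 3.43, 3.22 and 3.01 CPM, 13.2-fold lower (-3.73 ± 0.10, edgeR adjusted p = 4.3e-22). The 3 overexpression libraries showed little spread in both genes. That they lay below the controls was a condition of the choice of these steepest falls. IFI16, a sensor of foreign DNA, fell 12.0-fold and CXXC4, a regulator of WNT signalling, 9.47-fold. TMEM200B fell 8.11-fold, CYP27A1, a sterol hydroxylase of mitochondria, 7.10-fold and FLNC, an actin crosslinker, 5.83-fold. Smaller falls among the 15 were those of NAPRT (-2.12 ± 0.10, or -1.36 with the change of neighbouring genes taken off), which starts NAD synthesis from nicotinic acid, the inositol phosphatase gene INPP5D (-2.01 ± 0.14), the adhesion gene CNTN1 (-1.84 ± 0.08), the retinol-binding gene RBP7 (-1.84 ± 0.09) and the procollagen protease gene ADAMTS2 (-1.78 ± 0.15).

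Below a mean of 5 CPM further genes had almost no counts left, and those named in this paragraph were chosen after their values were seen. VEGFC, a growth factor of lymphatic vessels, had 420 counts summed over the controls and 3 over the overexpression libraries (ratio 146, 95% exact interval 49.6 to 710). SERPINB9, a granzyme inhibitor, had 450 against 8, and the steroid hydroxylase gene CYP7B1 225 against 2. The death receptor gene TNFRSF10A (160 counts in control), ZNF785 (158) and the GABA receptor gene GABRA5 (101) had 0 counts in all 3 overexpression libraries. Set against a floor of 3 counts over the group, they were at least 55.6-, 54.9- and 35.1-fold lower, without the counting error of the control counts. With that error included, the lower limits of the 95% exact intervals were 44.7-, 44.1- and 28.0-fold. On the higher side, FGF21, a hormone gene known to answer amino acid shortage, went from 15 counts over the controls to 105 (ratio 6.72, 95% exact interval 3.89 to 12.4).

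Of the 5 genes with the largest falls in mean CPM, drawn from called genes whose groups did not overlap, 4 are described here. FASN, which makes fatty acids, stood at 3361, 3226 and 3194 CPM in control and 1274, 1557 and 1448 CPM in overexpression. HSP90AB1, a cytosolic chaperone, stood at 4696, 4549.9 and 4686 CPM against 3315, 3297 and 2969 CPM. The changes were -1.19 ± 0.07 and -0.54 ± 0.05 (edgeR adjusted p = 1.9e-14 and 2.2e-10). The elongation factor gene EEF1A1 (-0.20 ± 0.04) and the actin gene ACTG1 (-0.41 ± 0.06) fell by less. Both lost their calls when the median change of 50 neighbouring genes was taken off (-0.10 and -0.06, edgeR adjusted p = 0.067 and 0.38), an adjustment explained with the positional results.

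Gene lists show where these changes gathered. Each is described by its counts and median beside those of all tested genes, of which 27.7% were higher and 29.1% lower with a median log2 change of -0.002. Counts near these shares show nothing particular to a list. The shares also differed with the level and length of genes, as given with base composition. The lists were not matched for either. Members named beyond the 4 of a list with the smallest adjusted p were chosen after their values were seen. The ATF4 and unfolded protein list had the highest median of the lists in the plot of gene groups. ATF4 is a transcription factor whose protein is made when the kinases of the integrated stress response slow translation, and its targets import and make amino acids, charge tRNAs and, in strong stress, promote cell death. The unfolded protein response proper, through ATF6 and XBP1, raises chaperones of the endoplasmic reticulum (ER). Of 40 tested members 30 were higher, 6 lower and 4 not past the test, with a median of 0.64. Among amino acid genes, besides ASNS and SLC7A11, the leucine transporter gene SLC7A5 went from 159 ± 6.10 to 430.1 ± 23.6 CPM (1.44 ± 0.07, edgeR adjusted p = 3.2e-16). PSAT1 (1.36 ± 0.06) and PSPH (1.14 ± 0.08) of serine synthesis rose, as did MTHFD2 (1.11 ± 0.06) of mitochondrial folate metabolism. The stress regulators DDIT3 (1.65 ± 0.11), ATF3 (1.64 ± 0.10) and TRIB3 (1.21 ± 0.10) rose, and ATF4 itself rose less (0.49 ± 0.06). The members that fell were ER chaperones or folding enzymes: SDF2L1 (-1.28 ± 0.16), HSPA5 (-1.27 ± 0.05), CALR, PDIA4, PDIA6 and HSP90B1. The list's summed level was 9005 to 9324 CPM in control and 12083 to 12330.0 CPM in CFIm25 overexpression. The count of higher members ran from 29 to 31 when any 1 library was left out.

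ATF4 binds a composite element, and the RefSeq promoters (250 bases before to 50 after each start, build GRCh38.p14) were searched on both strands for its core, TGATGNAA. The core was found at 8 of the 25 higher list members with a listed promoter (32.0%) and at 0 of 6 lower members. Over all tested list members with a listed promoter it was found at 9 of 35 (25.7%). It was found at 269 of 9772 tested genes (2.75%) and at 1217 of all 27305 genes with a listed promoter (4.46%). Among all higher genes it was found at 3.62% and among all lower genes at 2.13%. A match is a description of the letters and not a measured site. The list was chosen for ATF4 and the unfolded protein response, so its share does not test whether the core goes with the change. The 5 with the largest changes are shown with the core in capitals, since they let the elements of the genes that rose most be compared. Each is read 5′ to 3′ on the strand that carries the core.
CHAC1 (chr15:40953251-40953280, minus strand): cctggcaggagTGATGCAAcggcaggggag
ASNS (chr7:97872458-97872487, minus strand): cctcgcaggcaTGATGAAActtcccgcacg
ATF3 (chr1:212565205-212565234, plus strand): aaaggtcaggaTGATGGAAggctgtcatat
SLC7A1 (chr13:29595663-29595692, minus strand): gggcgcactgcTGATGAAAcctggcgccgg
GARS1 (chr7:30594834-30594863, minus strand): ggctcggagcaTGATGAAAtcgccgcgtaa
ASNS, SLC7A1 and GARS1 share the same 8 letters of the core. SLC7A1, a transporter of cationic amino acids, changed by 0.86 ± 0.05 and GARS1, the glycyl-tRNA synthetase, by 0.82 ± 0.06.

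The tRNA synthetase genes were looked at after this list had been seen, and 4 of them are on it. These enzymes load amino acids onto tRNAs. Of 19 cytosolic synthetase genes tested 12 were higher and 2 lower, with a median of 0.54 and a summed level of 5989 to 6159 CPM in control and 8534 to 9024 CPM in CFIm25 overexpression. CARS1 (0.92 ± 0.06), YARS1 (0.84 ± 0.06) and GARS1 led. VARS1 (-0.92 ± 0.19) and HARS1 (-0.41 ± 0.05) fell.

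Chaperone lists had more lower than higher members. Of 20 genes for disulfide isomerases and ER chaperones 11 were lower, 3 higher and 6 not past the test, with a median of -0.28. HSPA5, the main Hsp70 of the ER, stood at 858, 872 and 911 CPM in control and 385, 373 and 341 CPM in overexpression (-1.27 ± 0.05, edgeR adjusted p = 4.8e-18). The lowest control was more than 2-fold above the highest overexpression library. CRELD2 (-0.87 ± 0.08), the calcium-binding chaperone gene CALR (-0.55 ± 0.05) and the isomerase gene PDIA3 (-0.48 ± 0.05) fell as well. A list of heat shock chaperones, drawn up after the values were seen, had 18 of 22 members lower and 1 higher, with a median of -0.42. The Hsp40 genes DNAJA1 (-1.49 ± 0.07) and DNAJB1 (-1.29 ± 0.07), the mitochondrial chaperonin gene HSPE1 (-1.03 ± 0.06) and the small heat shock gene HSPB1 (-0.98 ± 0.13) fell the most.

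Genes of cholesterol and fatty acid synthesis fell nearly as a block. This pathway is switched on by SREBP transcription factors when membranes are short of sterol. Of 33 tested members 25 were lower, 1 higher and 7 not past the test, with a median of -0.46 and a summed level of 8992 to 9222 CPM in control and 5938 to 6661 CPM in CFIm25 overexpression. HMGCS1, the enzyme before the committed step, stood at 134, 124 and 119 CPM in control and 57.0, 57.6 and 43.4 CPM in overexpression (-1.25 ± 0.08, edgeR adjusted p = 6.0e-14). SQLE, which epoxidises squalene, stood at 397, 409 and 412 CPM against 221, 238 and 175 CPM (-0.94 ± 0.07, edgeR adjusted p = 1.7e-12). In both the third overexpression library was the lowest, and no library crossed between groups. The sterol demethylase gene MSMO1 fell by 1.20 on the log2 scale, and IDI1, an isomerase of isoprenoid synthesis, by 1.04. The exception was SREBF1, which encodes an SREBP factor and rose (0.52 ± 0.07), while SREBF2, which encodes the other, fell (-0.32 ± 0.06). A sterol element core, TCACNCCAC, was found on either strand at 1 of 25 tested members with a promoter, SREBF2, and at 147 of 9772 tested genes.

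**Figure D3:**
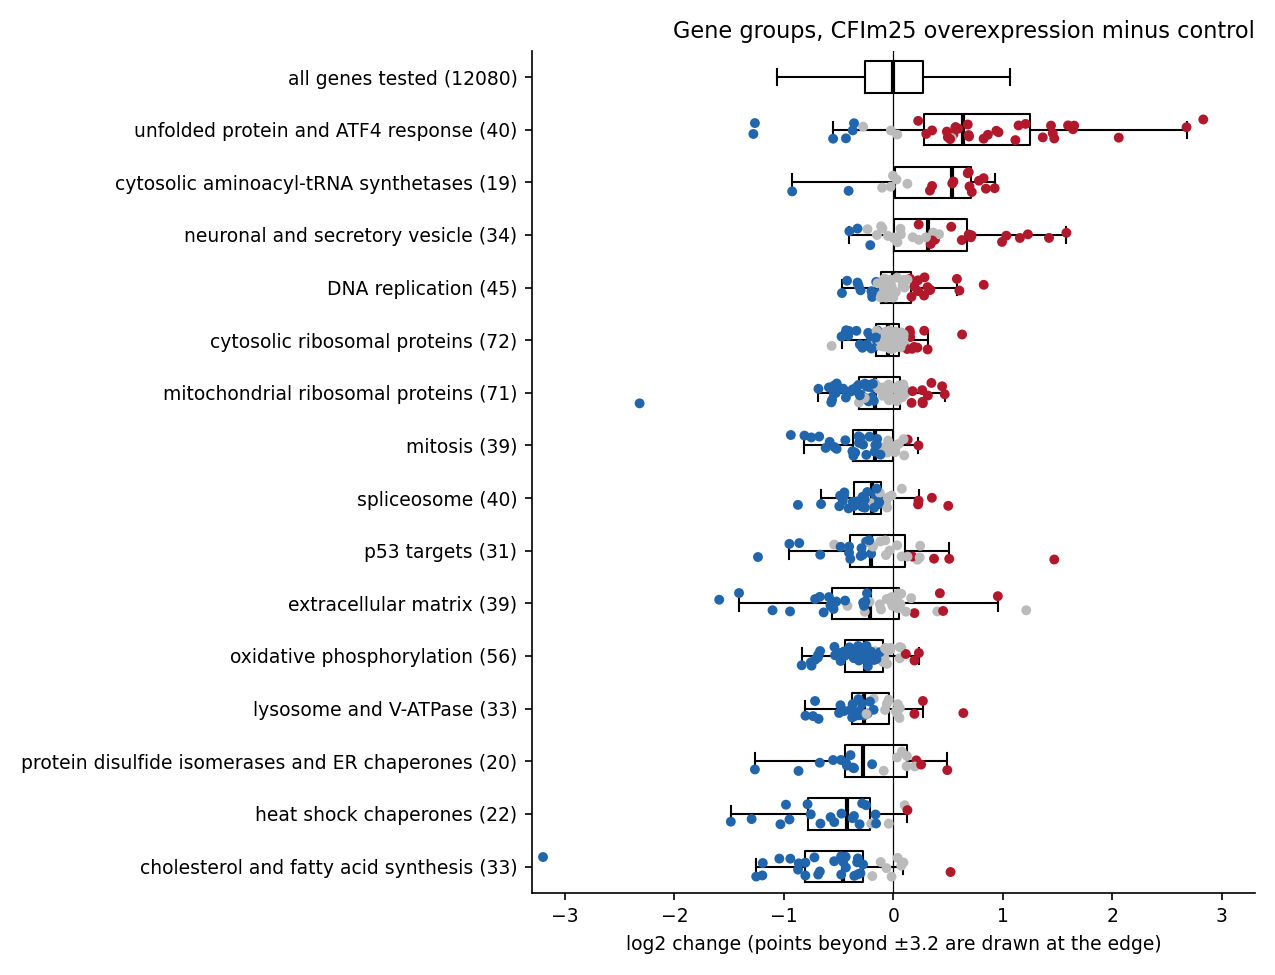
Log2 change (x axis) of the tested members of each gene group shown, with the number tested in brackets and all tested genes in the top row. Boxes span the quartiles with the median as a thick line, whiskers reach 1.5 times the box, and points are genes called higher (red), lower (blue) or neither (grey). The ATF4 list sits to the right of all genes (median 0.64), and the cholesterol list (median -0.46) and the heat shock chaperones (median -0.42) to the left.

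Nuclear genes of the mitochondrion leaned lower. Of 56 genes of the respiratory chain and ATP synthase 40 were lower and 3 higher (1 without CFIm25 overexpression replicate 2 or control replicate 1), with a median of -0.26. ATP5MC3, a subunit of the ATP synthase ring, went from 335 ± 19.6 to 199 ± 12.7 CPM (-0.75 ± 0.05, edgeR adjusted p = 1.2e-12). NDUFB10 of complex I (-0.75 ± 0.06) and COX6B1 of complex IV (-0.71 ± 0.06) fell to a like degree. Mitochondrial ribosomal protein genes had 34 of 71 lower and 9 higher (median -0.17), including MRPL13 (-0.59 ± 0.06) and MRPL20 (-0.54 ± 0.06). Cytosolic ribosomal protein genes had 23 of 72 lower and 10 higher, with a median of -0.05. Without CFIm25 overexpression replicate 1, 15 of these were lower and 12 higher. Without control replicate 3, 15 were lower, and without control replicate 2, 6 were higher. RPL37A (-0.47 ± 0.05) lost its call with neighbouring genes taken off (-0.04, edgeR adjusted p = 0.56), and RPL8 then passed as higher (0.31 in place of -0.43, edgeR adjusted p = 3.3e-05).

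Genes of cell division leaned lower, and those of DNA copying moved in both directions. Of 39 mitosis genes 24 were lower and 2 higher (median -0.17). The spindle checkpoint kinase gene BUB1 stood at 239, 228 and 225 CPM in control and 123, 123 and 116 CPM in overexpression (-0.94 ± 0.05, edgeR adjusted p = 3.8e-15). Its groups were far apart, with little spread in either. The kinesin gene KIF20A (-0.81 ± 0.06), the mitotic kinase gene PLK1 (-0.75 ± 0.05) and the cytokinesis gene ANLN (-0.68 ± 0.05) followed. Of 45 DNA replication genes 13 were higher and 10 lower. ORC5 of the origin complex (0.82 ± 0.07), RFC4 of the clamp loader (0.58 ± 0.05) and the primase gene PRIM1 (0.60 ± 0.06) rose, and the helicase gene MCM5 fell (-0.47 ± 0.05). Among 23 genes of G1 control 6 were higher and 8 lower, and 5 were lower without CFIm25 overexpression replicate 1 or with neighbouring genes taken off. E2F2, a transcription factor of S phase entry, rose (0.84 ± 0.05), as did MYC (1.05 ± 0.11) from a low level, 6.08 ± 0.37 to 12.6 ± 0.836 CPM. CDKN1A, the CDK inhibitor p21, fell from 34.1, 35.5 and 29.7 CPM to 10.6, 15.2 and 16.9 CPM (-1.24 ± 0.11, edgeR adjusted p = 1.4e-10). All overexpression libraries were below the lowest control. CDKN1A is also a p53 target, and of 31 such genes 14 were lower and 4 higher (median -0.20). TP53INP1 (-0.86 ± 0.07) and the DNA polymerase gene POLH (-0.67 ± 0.07) fell, while SESN2, a sestrin that is also on the ATF4 list, rose (1.47 ± 0.09).

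Splicing genes had more falls than rises. Of 40 spliceosome genes 28 were lower and 4 higher (median -0.19), including SF3B3 of the U2 particle (-0.45 ± 0.04), PRPF31 of the tri-snRNP (-0.49 ± 0.05) and SNRNP70 of the U1 particle (-0.66 ± 0.08). With neighbouring genes taken off 21 were lower. Of 19 SR protein genes and their kinases 10 were lower and 4 higher, including SRRM1 (-0.47 ± 0.05), CLK3 (-0.57 ± 0.06) and SRSF2 (-0.50 ± 0.05), and 6 were lower with neighbouring genes taken off. Among 20 hnRNP genes, whose proteins coat nascent RNA, 8 were lower and 3 higher, with HNRNPA3 lower (-0.56 ± 0.06).

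The rest of the 3′ end machinery moved in both directions. Of 10 genes for CPSF and CstF 4 were higher and 4 lower, or 2 lower with neighbouring genes taken off. CPSF2, a partner of the endonuclease, rose from 259.5 ± 11.7 to 359.6 ± 26.4 CPM (0.47 ± 0.05, edgeR adjusted p = 2.2e-08), and FIP1L1, which recruits poly(A) polymerase, rose by 0.37 ± 0.14. FIP1L1 lost its call without CFIm25 overexpression replicate 3 (0.34, edgeR adjusted p = 0.067) or control replicate 2 (0.30, 0.11), and just missed it by DESeq2 (0.37, DESeq2 adjusted p = 0.051). CPSF4 (0.44 ± 0.07) and the endonuclease gene CPSF3 (0.19 ± 0.05) rose but did not pass with neighbouring genes taken off (0.14 and 0.06, edgeR adjusted p = 0.098 and 0.34). CSTF2, which binds downstream of the cleavage site, fell (-0.26 ± 0.05). The scaffold genes CPSF1 (-0.64 ± 0.06), WDR33 (-0.22 ± 0.06) and SYMPK (-0.16 ± 0.05) fell, but stood at 0.10, 0.20 and 0.20 once the change of their neighbours was taken off. After that step WDR33 and SYMPK passed as higher (edgeR adjusted p = 0.010 and 0.0030) and CPSF1 did not pass (0.13). SYMPK also lost its call without CFIm25 overexpression replicate 1 (-0.11, edgeR adjusted p = 0.095). CPSF1 and FIP1L1 share exonic bases with another gene on their strand. Of 17 genes for CFIIm, poly(A) polymerases, poly(A)-binding proteins and termination 7 were higher and 5 lower, and 3 were lower without CFIm25 overexpression replicate 3 or control replicate 2. CLP1 of CFIIm fell (-0.62 ± 0.10), its partner PCF11 fell slightly (-0.16 ± 0.06), and the termination factor gene RPRD1B (0.58 ± 0.07) and the cytoplasmic poly(A)-binding protein gene PABPC1 (0.24 ± 0.04) rose. PCF11 lost its call without CFIm25 overexpression replicate 3, control replicate 1 or control replicate 2 (-0.12, -0.13 and -0.14, edgeR adjusted p = 0.13, 0.12 and 0.089). The rises of the poly(A) polymerase gene PAPOLA (0.29 ± 0.06), of ZC3H14 (0.26 ± 0.07) and of the exonuclease gene XRN2 (0.15 ± 0.05) turned to -0.01, -0.01 and -0.21 with neighbouring genes taken off, and XRN2 then passed as lower (edgeR adjusted p = 4.6e-04).

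A question named in the series title concerns microRNA genes. Of 19 genes of microRNA processing and export 9 were lower and 3 higher (median -0.12). SRRT, which hands primary microRNAs to the processor, went from 372 ± 26.3 to 245 ± 10.9 CPM (-0.60 ± 0.06, edgeR adjusted p = 9.8e-10). The helicase genes DDX17 (-0.39 ± 0.06) and DDX5 (-0.30 ± 0.05) and LIN28B, which blocks let-7 maturation (-0.56 ± 0.09), fell. The small falls of the export receptor gene XPO5 (-0.15 ± 0.04) and of DGCR8 (-0.17 ± 0.06) stood at 0.13 and 0.05 with neighbouring genes taken off, and XPO5 then passed as higher (edgeR adjusted p = 0.015). DGCR8 also lost its call without CFIm25 overexpression replicate 1, replicate 2 or control replicate 2 (-0.16, -0.15 and -0.11, edgeR adjusted p = 0.055, 0.082 and 0.18). Of 11 genes of the silencing complex 5 were lower and 2 higher (median -0.24). The Argonaute gene AGO1 stood at 85.9, 78.6 and 61.8 CPM in control and 50.3, 46.9 and 48.2 CPM in overexpression (-0.64 ± 0.09, edgeR adjusted p = 3.4e-07), and AGO2 at 132, 115 and 94.0 CPM against 76.4, 76.3 and 72.5 CPM (-0.59 ± 0.08). The overexpression libraries were below every control in both, and control replicate 3 was the nearest to them. AGO2 lies in a stretch of chromosome 8 that was lower as a whole and stood at 0.04 with its neighbours taken off. TNRC6B, the scaffold of silencing, fell (-0.50 ± 0.09), and the LIM protein gene AJUBA rose (0.96 ± 0.09). Of 17 deadenylase genes 8 were lower and 6 higher, with the antiproliferative gene BTG1 higher (0.81 ± 0.06) and its relative BTG2 lower (-0.95 ± 0.14). CNOT9 (-0.41 ± 0.06) stood at 0.01 with neighbouring genes taken off.

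Of 13 tested genes for which CFIm was published to choose the 3′ UTR, 3 were higher (1 with neighbouring genes taken off) and 5 lower, with a median of 0.02. The metalloprotease inhibitor gene TIMP2 (-0.44 ± 0.07), the LIM protein gene FHL1 (-0.29 ± 0.05) and the chromatin gene HMGA2 (-0.63 ± 0.13) fell, and the kinase gene PAK1 rose (0.23 ± 0.05). The D-type cyclin gene CCND1 fell from 10.9, 9.94 and 10.8 CPM to 7.68, 9.28 and 8.64 CPM (-0.31 ± 0.10, edgeR adjusted p = 0.0086), a call lost without CFIm25 overexpression replicate 1 (-0.22, edgeR adjusted p = 0.085) or with neighbouring genes taken off (-0.11, edgeR adjusted p = 0.37). The chloride transporter gene CLCN3 (0.13 ± 0.06) sat at the threshold and lost its call without CFIm25 overexpression replicate 1 (0.09, edgeR adjusted p = 0.19) or control replicate 3 (0.07, 0.28). It also lost it with GC bins taken off (0.07, edgeR adjusted p = 0.28), in the fit of the 6 libraries alone (0.14, 0.083) and with neighbouring genes taken off, where it stood at 0.01 (0.89). GSK3B (0.22 ± 0.07) stood at -0.08 with neighbouring genes taken off. Gene counts do not show whether the 3′ UTR of any of these changed.

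Signalling lists, named in the series title too, moved in both directions. RAS and MAPK genes had 10 of 36 higher and 10 lower (6 lower with neighbouring genes taken off), with HRAS lower (-0.55 ± 0.07) and the exchange factor gene SOS1 higher (0.38 ± 0.06). PI3K, AKT and mTOR genes had 13 of 34 higher and 12 lower. There EIF4EBP1, the translation repressor, rose from 27.5 ± 2.55 to 46.9 ± 7.37 CPM (0.76 ± 0.08), and DDIT4, an mTOR inhibitor that is also on the ATF4 list, rose by 0.94 ± 0.12. WNT genes had 7 of 31 higher and 10 lower, including a rise of the ligand gene WNT5A from 146, 138 and 144 CPM to 282, 235 and 248 CPM (0.84 ± 0.06, edgeR adjusted p = 1.9e-12) and a fall of the receptor gene FZD5 (-0.58 ± 0.06). All 3 overexpression libraries were above the controls for WNT5A. In the TGF-beta, BMP and activin list 13 of 35 were higher and 14 lower, and 9 were lower without CFIm25 overexpression replicate 3 or control replicate 2. The BMP receptor gene BMPR2 fell (-0.54 ± 0.06), and the signal transducers SMAD1 (0.61 ± 0.08) and SMAD9 (0.49 ± 0.05) rose. With neighbouring genes taken off that list had 6 higher and 16 lower, and NOTCH, here with 8 of 32 higher and 12 lower, had 9 and 6. The NOTCH ligand gene JAG1 (0.51 ± 0.06) and the target HES1 (0.57 ± 0.07) rose, and NCSTN of the cleaving protease fell (-0.38 ± 0.05). Hippo genes had 5 of 24 higher and 7 lower, among them the kinase gene LATS2, which fell (-0.67 ± 0.08).

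Matrix and lysosome genes leaned lower. Of 39 extracellular matrix genes 17 were lower and 4 higher (median -0.22). SPARC, a collagen-binding glycoprotein, stood at 209.8, 231 and 223 CPM in control and 74.9, 77.2 and 68.4 CPM in overexpression, 3.01-fold lower (edgeR adjusted p = 1.4e-19). The groups were far apart, and COL18A1 (-1.41 ± 0.09), AGRN (-1.10 ± 0.10) and COL2A1 (-0.94 ± 0.08) fell as well. Of 33 lysosome and V-ATPase genes 20 were lower and 3 higher (median -0.27), including the sialidase gene NEU1 (-0.73 ± 0.06) and the proton pump gene ATP6V0D1 (-0.68 ± 0.06).

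Neuronal and secretory vesicle genes leaned higher. Of 34 tested members 15 were higher and 3 lower (median 0.32). SYP, a membrane protein of synaptic vesicles, stood at 10.9, 11.1 and 9.43 CPM in control and 31.1, 31.6 and 31.6 CPM in overexpression (1.58 ± 0.09, edgeR adjusted p = 4.6e-14), a 3-fold step with almost no spread among the overexpression libraries. The granule gene CHGB (1.42 ± 0.15) and the cytoskeletal gene MAP1B (0.99 ± 0.13) rose from low levels. The list's summed level moved little, at 1073 to 1132 CPM in control and 1122 to 1143 CPM in CFIm25 overexpression.

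In the list of NRF2 targets, the genes of oxidant defence, 13 of 29 were lower and 3 higher (median -0.15), and 5 were higher without CFIm25 overexpression replicate 1. Beside GSTP1, the abundant peroxidase gene PRDX1 fell from 1077, 1033 and 1152 CPM to 693, 717 and 517 CPM (-0.76 ± 0.07, edgeR adjusted p = 1.2e-09). The third overexpression library was the lowest for it. The reductase genes AKR1C1 and AKR1C2 went from 52 and 27 counts over the controls to 2 and 1. SLC7A11, on this list too, rose. Interferon and antigen presentation genes had 13 of 33 lower and 7 higher, with B2M (-0.34 ± 0.05) lower and BST2 (1.21 ± 0.15) and OAS3 (0.71 ± 0.08) higher. Hypoxia and glycolysis had 8 of 32 higher and 8 lower. The higher count was 5 without CFIm25 overexpression replicate 2 and 4 without control replicate 3, and the lower count 5 without CFIm25 overexpression replicate 3. Metallothioneins and zinc transport had 6 and 9 of 22, with 3 higher without control replicate 2 or 3, and epithelial and mesenchymal genes 6 and 7 of 18. N-glycan branching had 2 of 9 higher (1 without CFIm25 overexpression replicate 2 or 3 or control replicate 2) and 3 lower. UFM1 conjugation had 3 and 2 of 7 (1 lower without control replicate 2 or 3, and 1 higher with neighbouring genes taken off), and protocadherins and adhesion 4 and 4 of 8. In the TSC22 and glucocorticoid receptor list, 6 of 11 were higher and 3 lower, with KLF9 (0.69 ± 0.06) and TSC22D1 (0.81 ± 0.10) beside TSC22D3. Of 10 imprinted and microRNA host genes 5 were lower, among them MIR34AHG (-0.73 ± 0.10), and 2 higher. Without control replicate 2, 3 were lower.

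Zinc finger genes leaned higher. Many encode KRAB zinc finger proteins, repressors that lie in clusters on chromosome 19. Of 421 genes with such names (a group formed after the values were seen) 211 were higher and 44 lower (median 0.28). On chromosome 19 the counts were 113 and 10 of 192 (median 0.40), and elsewhere 98 and 34 of 229 (median 0.18). With neighbouring genes taken off, 83 of the chromosome 19 genes were higher and 13 lower, which takes part of the cluster's own change away with it. Without CFIm25 overexpression replicate 1 or control replicate 2, 6 were lower. These genes share sequence with each other, so counting could divide reads among them. Of 138 lincRNAs 40 were higher and 18 lower (median 0.27). Their summed level rests almost wholly on 1 RNA that is not described here, and is not given.

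Where a gene lies went with how it changed. On chromosome 3, 59.7% of 677 tested genes were higher and 6.20% lower (median 0.29). Chromosomes 20, 14 and 18 also leaned higher (medians 0.20, 0.16 and 0.13). Chromosomes 21, 8, 16, 2 and 6 leaned lower (medians -0.23, -0.21, -0.18, -0.15 and -0.15). To describe this more finely, the median change of 50 neighbouring tested genes was taken along each chromosome. Runs of at least 40 genes with that median at least 0.2 from 0 on the log2 scale numbered 12 higher and 16 lower, and they held 2491 genes (20.6%). The steepest was on chromosome 8 from RIMS2 to C8orf33 (positions 103500748 to 145066685, hg38). There 88 of 124 genes were lower and 11 higher, with a median of -0.56, and the medians in the single overexpression libraries against the control mean were -0.53, -0.59 and -0.52. The end of chromosome 2 from SLC25A12 to GAL3ST2 had 168 of 274 genes lower and 16 higher (median -0.36). Most of chromosome 3 fell into runs with medians of 0.23 to 0.31, and the end of chromosome X from AFF2 to VAMP7 had a median of 0.33. The 3 overexpression libraries had medians of the same sign in each of these stretches. Whether they differ from the controls in DNA copy number was not tested, since the files hold RNA counts.

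**Figure D4:**
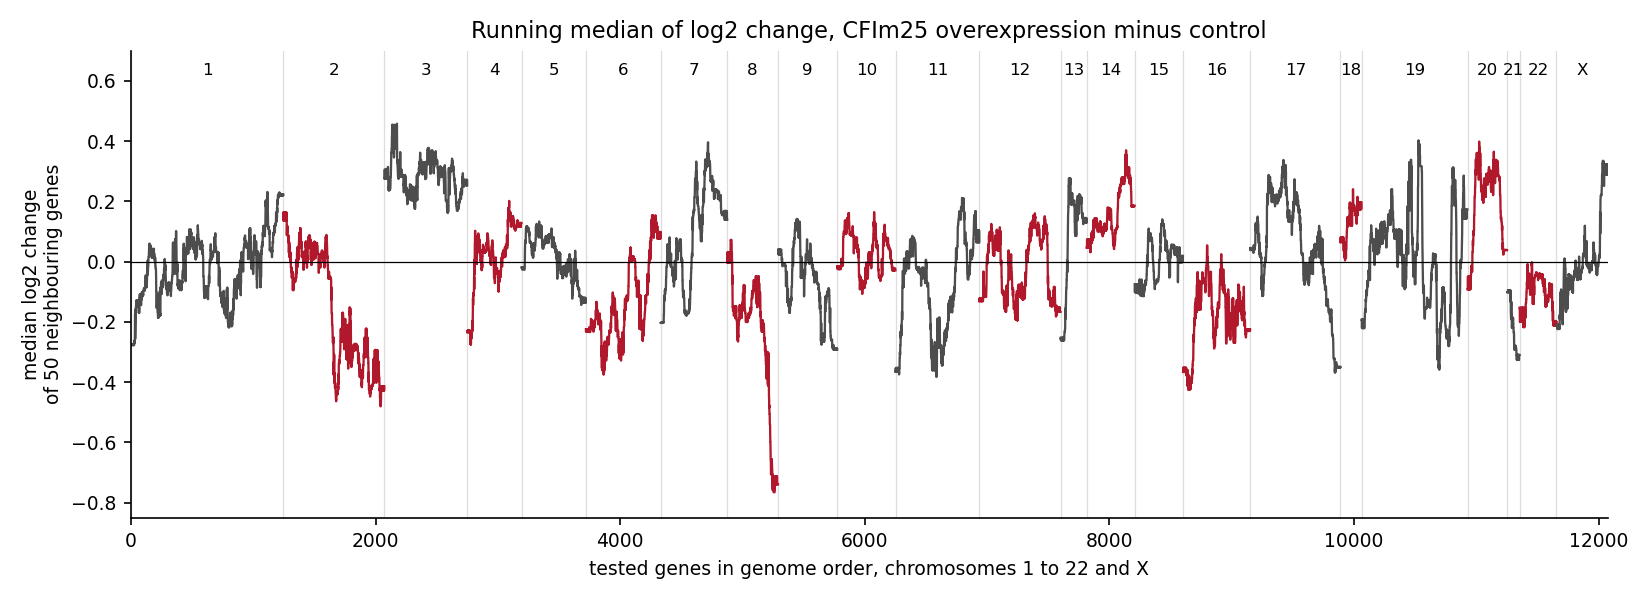
Median log2 change of 50 neighbouring tested genes (y axis) along the tested genes in genome order (x axis), with chromosomes marked above and drawn in alternating colours. Chromosome 3 lies above 0 throughout, the last stretch of chromosome 2 lies below 0, and the end of chromosome 8 reaches the lowest values.

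At the tip of the X chromosome, CD99 lies in the first pseudoautosomal region, and all 7 tested genes there were lower (median -0.70, a group formed after the values were seen). Apart from CD99, AKAP17A (-0.93 ± 0.07), GTPBP6 (-0.84 ± 0.07) and the ADP and ATP carrier gene SLC25A6 (-0.70 ± 0.06) fell the most. With neighbouring genes taken off 6 of the 7 were lower.

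Base composition also went with the changes. With genes divided by GC content into 4 bins of equal number, 35.5% of the bin with the lowest GC were higher and 21.7% lower, and in the bin with the highest GC 17.9% were higher and 39.5% lower. The first overexpression library stood apart here. Against the control mean, the median of the GC-rich bin was -0.25 in it, -0.08 in the second and -0.07 in the third. Without it the shares were 29.5% and 23.5% in the GC-poor bin and 20.2% and 31.1% in the GC-rich bin, so the same order remained at a smaller size. Counts of TGTA, the DNA form of the CFIm25 binding sequence, in the last 100 bases of the annotated transcript went with little. With 0 matches 26.8% of 5076 genes were higher and 30.8% lower, and with 3 or more 31.4% of 716 were higher and 25.4% lower. Without the first overexpression library these shares drew together, to 25.9% and 27.3% with 0 matches and 26.7% and 25.8% with 3 or more. By annotated 3′ UTR length in 4 bins, 25.2% of the shortest were higher and 31.9% lower, against 31.4% and 25.5% of the longest. Without the first overexpression library the shares were 25.1% and 27.3% for the shortest and 27.6% and 25.1% for the longest. In 4 bins of gene length, 20.01% of the shortest were higher and 36.6% lower, against 33.59% and 21.83% of the longest. Without that library they were 21.17% and 31.04%, against 29.45% and 21.23%. In 4 bins of mean CPM, 23.44% of the lowest were higher and 15.36% lower, against 27.45% and 38.97% of the highest. Without that library they were 21.36% and 11.56%, against 26.09% and 38.84%. The medians of these CPM bins were 0.09 and -0.04.

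The other groups of the study give these changes a setting. They share the 3 control libraries, so their values are set side by side, and differences were tested only between the overexpression groups, which do not share libraries under test. CFIm68 overexpression changed 29.8% of genes against control. Between CFIm25 and CFIm68 overexpression 63.7% of genes differed, 30.8% higher with CFIm25 and 32.9% lower with CFIm25. Of the ATF4 list 28 of 40 members were above and 7 below their level with CFIm68, and of the cholesterol list 25 of 33 were below and 4 above. Against control, the ATF4 list also had 25 higher and 5 lower in CFIm25 knockdown, and 19 and 4 in CFIm68 overexpression. The synthetase list had 12 of 19 higher and 2 lower in CFIm25 knockdown. The cholesterol list had 8 higher and 14 lower in CFIm25 knockdown, and 12 and 6 in CFIm68 overexpression. Of all 12080 tested genes 2949 were higher and 2797 lower in CFIm25 knockdown, and 1746 and 1859 in CFIm68 overexpression. The log2 changes of ASNS were 2.06 with CFIm25 overexpression, 0.57 with CFIm68 overexpression, 1.06 with CFIm25 knockdown and 0.25 with CFIm68 knockdown. The difference between the overexpression groups was 1.49 ± 0.08 (edgeR adjusted p = 8.9e-15). TSC22D3 had 2.15, 0.29, 1.60 and 0.87 in the same order, and SLC7A11 2.68, 0.41, 1.13 and -0.36.

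Among the steep falls, GSTP1 had -4.07 with CFIm25 overexpression, 0.07 with CFIm68 overexpression, -0.98 with CFIm25 knockdown and -0.95 with CFIm68 knockdown. STAT6 had -3.73, 0.73, -1.12 and -1.20 in that order, and CD99 -8.82, -0.49, -0.12 and -0.20. All differed between the overexpression groups (-4.14 ± 0.07, -4.46 ± 0.10 and -8.34 ± 0.18, edgeR adjusted p = 6.3e-27, 8.6e-25 and 1.1e-24). Some genes were low in both overexpression groups. CYP27A1 had -2.83 and -2.71, and the test of their difference did not pass (-0.11 ± 0.28, edgeR adjusted p = 0.73). Others moved apart. ZNF83 had 2.12 with CFIm25 and -6.07 with CFIm68 overexpression, and PCDH19 had 2.21 and -3.16. Chromosome 3 had medians of 0.29, -0.16, 0.20 and 0.19 in CFIm25 overexpression, CFIm68 overexpression, CFIm25 knockdown and CFIm68 knockdown.

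**Figure D5:**
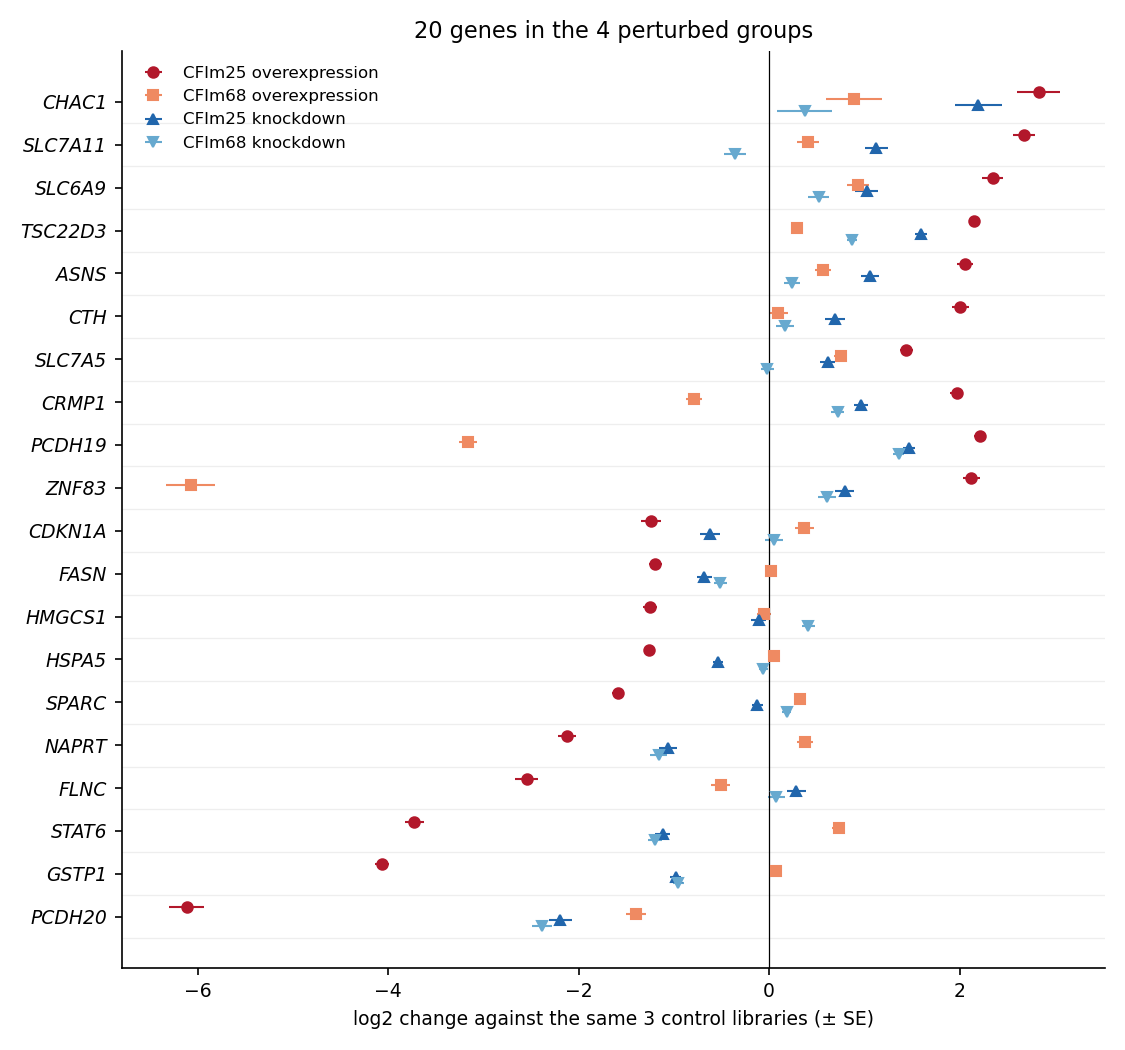
Log2 change against the same 3 control libraries (x axis, with SE bars) of 20 genes in the 4 perturbed groups, marked by colour and shape. For ZNF83 (2.12 against -6.07) and PCDH19 (2.21 against -3.16) the red circle of CFIm25 overexpression and the orange square of CFIm68 overexpression lie on opposite sides of 0.

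Markers were checked for the cell type and for other cells. Of 17 genes that mark embryonic kidney and HEK 293 cells 16 were tested, 5 higher and 3 lower, with a summed level of the tested members of 1460.3 to 1525 CPM in control and 1673 to 1757 CPM in overexpression. With neighbouring genes taken off 1 was lower. All 11 liver markers, among them ALB, were under 1 CPM in both groups, as were 11 of 12 blood markers, with PTPRC, HBA1 and HBB at 0 counts. The tested blood markers summed to 11.8 to 12.1 CPM in control and 12.2 to 13.4 CPM in overexpression, nearly all of it CD68. Tested keratinocyte and epithelial markers summed to 275 to 296 CPM in control and 256 to 290.1 CPM in overexpression, and KRT17 rose from 4.42, 4.04 and 3.83 CPM to 10.2, 13.2 and 12.3 CPM. Tested fibroblast markers summed to 78.7 to 86.2 CPM and 74.0 to 84.1 CPM, and LUM went from 54, 52 and 35 counts to 1, 4 and 1. KRT17 and LUM were named after their values were seen. The part of other cell types in the changes above was not tested.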

How the data were processed

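Messenger RNA was sequenced from TruSeq Stranded libraries made from 1 µg of total RNA, per the labels' protocols. The submitters' processing notes name cutadapt 1.16, STAR 2.7.1a and hg38, but no counting tool, strand setting or annotation. The values are whole-number counts per gene, deposited by the authors without normalization. All 14 libraries were fitted together with 1 coefficient per group in edgeR 4.0.16 (R 4.3.3), after filterByExpr (minimum count 10, minimum total 15) and TMM scaling, with quasi-likelihood tests, Benjamini-Hochberg adjustment and a threshold of 0.05. The steps were tested on simulated counts, of 11820 genes, in which 12 unchanged genes were called. Since only 49 or 50 genes were changed at each fold, that count does not measure false calls in the real data. Gene positions, GC content and lengths come from GENCODE 29, and promoters from RefSeq (GRCh38.p14). Of the 214 genes kept from the naming rule, 34 overlap exons of another same-strand gene and are uncertain to that degree.

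The members and gene lists were chosen with earlier results of these data known. Genes were named by a rule. It takes NUDT21, CPSF6 and CPSF7, and 15 genes per direction with the largest log2 changes, if the mean reached 5 CPM. It also takes the 5 with the largest CPM differences in each direction. Both of these sets were drawn from called genes whose groups did not overlap. It adds up to 4 members past the threshold with the smallest adjusted p from each list, and all members past it of the 3′ end, microRNA, Argonaute and target lists. The text names part of these, and other genes as stated beside them. Some genes the rule gives are not reported here. Exact intervals of count ratios are 95% conditional binomial intervals. Alternatives were DESeq2 1.42.0, limma-voom (limma 3.58.1), other scaling and filters, leaving out each library, a replicate block, and subtracting the median change of 50 neighbouring genes or of 20 GC bins. The GC bins, and the block within the 6 libraries, were added after seeing the data. No library of these groups was left out of the main comparison, and p-values of single genes rest on 3 and 3 libraries.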

Additional observations from a re-analysis of the deposited data

How the results depend on the processing

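The count of changed genes, 6854, lay between 6133 and 7128 under every setting tried with a gene count, and the higher genes were 48.2% to 50.4% of those changed. Leaving out any 1 library gave 6204 to 6531. Similar totals do not mean the same genes. Of the 6854 calls, 4985 were kept in the same direction with neighbouring genes taken off, and 5938 with GC bins taken off. The direction and call of NUDT21 held under each of these settings (log2 change 0.42 to 0.60). At least 4-fold changes depend on the low-count filter. Without it there were 98 higher and 116 lower genes in place of 42 and 68, and with at least 1 CPM in 3 libraries 33 and 42. Of genes at least 4-fold changed without overlap at a mean of 5 CPM, 12 were higher and 12 lower. A floor of 1 CPM gave 26 and 32, and a floor of 20 CPM gave 9 and 4.

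With the replicate number as a replicate block 7128 genes changed. Within the 6 libraries alone it was 6357 with the block and 6192 without. Residuals of same-numbered libraries correlated at 0.23, -0.08 and 0.06, and not every library correlated best with its own number, so the numbers are not taken to pair the libraries.

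Subtracting the neighbours' median moved a gene by a median of 0.11 on the log2 scale. Of 214 genes 182 stayed as they were, 16 lost their call and 16 turned sign, and the cause was not tested. These 214 are the genes kept from the naming rule, which favours small p and large changes. The turned values were 0.1024 for CPSF1, 0.1973 for WDR33, 0.2007 for SYMPK, -0.0146 for PAPOLA, -0.0126 for ZC3H14, -0.2077 for XRN2, 0.1296 for XPO5, 0.0511 for DGCR8, 0.0408 for AGO2, 0.0108 for CNOT9, -0.0759 for GSK3B, 0.3074 for RPL8, -0.0326 for RALY, 0.1664 for LRP2, -0.0328 for PODXL and 0.074 for CPSF7. CPSF7 also turned to 0.0029 with the CPM filter, 0.0156 without control replicate 3, and ran from -0.037 to 0.0405 over leaving out each library, and was 0.0011 with GC bins subtracted. CPSF6 passed with GC bins subtracted (-0.18, edgeR adjusted p = 0.0028). Genes near 0 counts are limited by depth, and their intervals cover counting error only.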
